A study of Mus musculus with 2 samples.

Results

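The 43 collagen genes of the mouse genome that are named by a chain symbol, without Col17a1, were followed in single cells of the growing hair follicle. They were taken by their symbols from the 31053 features of the deposited tables and not by any measured value. The cells came from skin of wild-type mice of strain C57BL/6;CD1 at postnatal day 32, when hairs were growing (anagen). Sorting had used CD34, found at the cell surface, together with H2BGFP, a fluorescent histone under the K14 (keratin 14) promoter, a gate that marks basal keratinocytes of the bulge, the stem cell region of the follicle. There are 2 libraries, replicate 1 and replicate 2, of 1 group, so nothing was treated or mutated, and the comparisons below are between kinds of cells within the libraries. Whether each library came from its own animals is not given in the sources used here, so p-values measure only the spread between these libraries.

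Collagens are trimers of chains wound into a triple helix and laid down outside the cell. Collagens I, III and V form the fibrils of the dermis, which fibroblasts make, whereas collagen IV forms the network of the basement membrane, which lies between epithelium and dermis. Collagen VII forms the anchoring fibrils that tie that membrane to the dermis, collagen XVIII is a proteoglycan of the membrane, collagen VI forms beaded filaments, and collagens XII, XIV and XVI attach to the surface of other collagen fibrils. Hair follicle stem cells rest on this membrane, and keratinocytes are known to make part of it themselves.

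Replicate 1 held 6592 cell barcodes with 52344178 unique molecular identifiers (UMIs, each standing for 1 captured transcript) and replicate 2 held 5080 with 38678103. Barcodes below 1000 genes or above 10% mitochondrial UMIs were dropped, and after removal of called doublets 3704 cells of replicate 1 and 2910 of replicate 2 remained. The libraries shared 3 barcodes among these cells. Of them 3622 and 2851 were keratinocytes in 10 clusters, and 44 and 24 were fibroblast-like cells, which had 218 and 200 CPM (scaled counts, defined below) of Pdgfra and 1888 and 1771 of Lum, both fibroblast markers, against at most 0.656 of either in any keratinocyte cluster. Papilla-like cells numbered 11 and 12, immune cells 9 and 15, melanocytes 12 and 3, and vascular cells 6 and 5. The stem cell marker Cd34 was read in every keratinocyte cluster, from 4.13 CPM in cluster 11 of replicate 1 to 311 in cluster 7 of replicate 2, and had 616 and 934 in the fibroblast-like cells. Levels are in CPM, the UMIs of a gene in a cell group of a library scaled to the same total for every group. They come from a random part of the UMIs that took no part in forming the clusters, and no collagen gene formed or named a cluster. UMIs mark the 3′ ends of transcripts and were not scaled by gene length, so levels are compared between cells and not between genes.

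Collagen genes of the basement membrane often lie head to head, and their promoters are shown because the pairs could be followed together across the cell groups. The capitals mark GGGCGG (the GC box) and CCAAT, each searched on both strands. The sequences run from 250 bases before to 50 after the gene start and are from RefSeq, build GRCm38.p6. Col4a1 lies on the minus strand at chr8:11312777-11313076, and Col4a2 on the plus strand at chr8:11312555-11312854. Col4a6 lies on the minus strand at chrX:141474027-141474326 and Col4a5 on the plus strand at chrX:141475169-141475468.
Col4a1: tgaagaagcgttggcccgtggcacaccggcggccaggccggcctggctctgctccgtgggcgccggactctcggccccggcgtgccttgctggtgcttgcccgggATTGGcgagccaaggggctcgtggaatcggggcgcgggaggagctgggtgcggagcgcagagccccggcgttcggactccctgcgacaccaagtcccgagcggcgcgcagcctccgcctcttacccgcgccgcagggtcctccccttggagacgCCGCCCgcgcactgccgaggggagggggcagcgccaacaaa
Col4a2: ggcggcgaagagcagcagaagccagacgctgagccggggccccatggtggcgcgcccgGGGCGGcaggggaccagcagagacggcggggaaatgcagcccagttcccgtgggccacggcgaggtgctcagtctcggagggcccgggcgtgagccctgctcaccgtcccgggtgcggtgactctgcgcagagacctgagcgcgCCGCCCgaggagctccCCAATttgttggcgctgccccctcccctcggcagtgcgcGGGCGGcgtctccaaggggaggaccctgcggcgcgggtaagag
Col4a6: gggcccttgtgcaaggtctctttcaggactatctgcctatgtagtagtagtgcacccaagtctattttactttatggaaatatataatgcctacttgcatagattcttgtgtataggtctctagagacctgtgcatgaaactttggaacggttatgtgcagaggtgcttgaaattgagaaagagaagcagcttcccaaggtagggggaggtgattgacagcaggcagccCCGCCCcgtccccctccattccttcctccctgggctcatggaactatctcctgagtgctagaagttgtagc
Col4a5: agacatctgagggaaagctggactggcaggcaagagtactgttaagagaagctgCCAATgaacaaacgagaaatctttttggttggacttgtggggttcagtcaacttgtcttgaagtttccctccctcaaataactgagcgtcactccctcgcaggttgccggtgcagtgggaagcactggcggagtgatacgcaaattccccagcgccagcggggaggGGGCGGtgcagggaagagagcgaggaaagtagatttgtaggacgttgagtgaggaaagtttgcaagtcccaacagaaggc
The annotated starts of Col4a1 and Col4a2 lie 21 bases apart, and their windows share 78 bases read in opposite directions. The starts of Col4a6 and Col4a5 lie 1343 bases apart and the windows share none. Of the 43 genes 34 had an entry, with 37 windows in all. The GC box was present in 23 of these 37 windows, or 62.2%, and in 35.7% of all 32851 promoter windows. CCAAT was present in 12, or 32.4%, and in 37.4% of all. The matches describe the letters only and say nothing of what binds there.

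Col1a1, the first chain of collagen I, served as the guide to free RNA, that is transcripts released by other cells and caught in a keratinocyte droplet. Col1a1 had 13397 and 14346 CPM in the fibroblast-like cells of replicates 1 and 2, against 3.66 and 3.25 in keratinocytes. It was 3657-fold higher in replicate 1, with an exact 95% interval of 2897 to 4684, and 4414-fold in replicate 2, with 3347 to 5943. Intervals here cover counting error only. At least 1 Col1a1 UMI was found in 126 of 3622 keratinocytes, or 3.48%, and in 88 of 2851, or 3.09%, and in 116 and 76 of these cells it was a single UMI. Among immune cells, which do not make it, 1 of 9 and 0 of 15 had one, and 0 of 15 allows a share of up to 20%, taking 3 cells as the limit for a count of 0. Median depths were 9704 and 9575 UMIs in keratinocytes and 10332 and 12026 in immune cells, so the few immune cells do not separate the keratinocyte share from their own. The level of Col1a1 ranged from 1.29 to 8.91 CPM over the 10 keratinocyte clusters and both libraries, and the joint test among the clusters did not call it (adjusted p = 0.92 by edgeR's quasi-likelihood test).

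The other chains of the fibril collagens I and III were as low in keratinocytes. Col1a2 had 10050 and 12313 CPM in fibroblast-like cells, against 1.37 and 1.59 in keratinocytes. Col3a1, the chain of collagen III, had 19917 and 18346 in fibroblast-like cells, against 4.43 and 0.701 in keratinocytes. A single keratinocyte of cluster 6 in replicate 1 held 56 Col3a1 UMIs, 33.3% of all that keratinocytes of the library held in the full counts, and cluster 6 of replicate 1 stood at 120 CPM for that reason, against 0.428 in replicate 2. Every other keratinocyte of both libraries had at most 2 Col3a1 UMIs. Col5a3, a chain of collagen V, had 837 and 775 CPM in fibroblast-like cells, against 0.203 and 0.0637 in keratinocytes. Col15a1, a relative of Col18a1 in the membranes of vessels and muscle, had 364 and 442 in fibroblast-like cells, against 0.0509 and 0.0637 in keratinocytes.

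**Figure D1:**
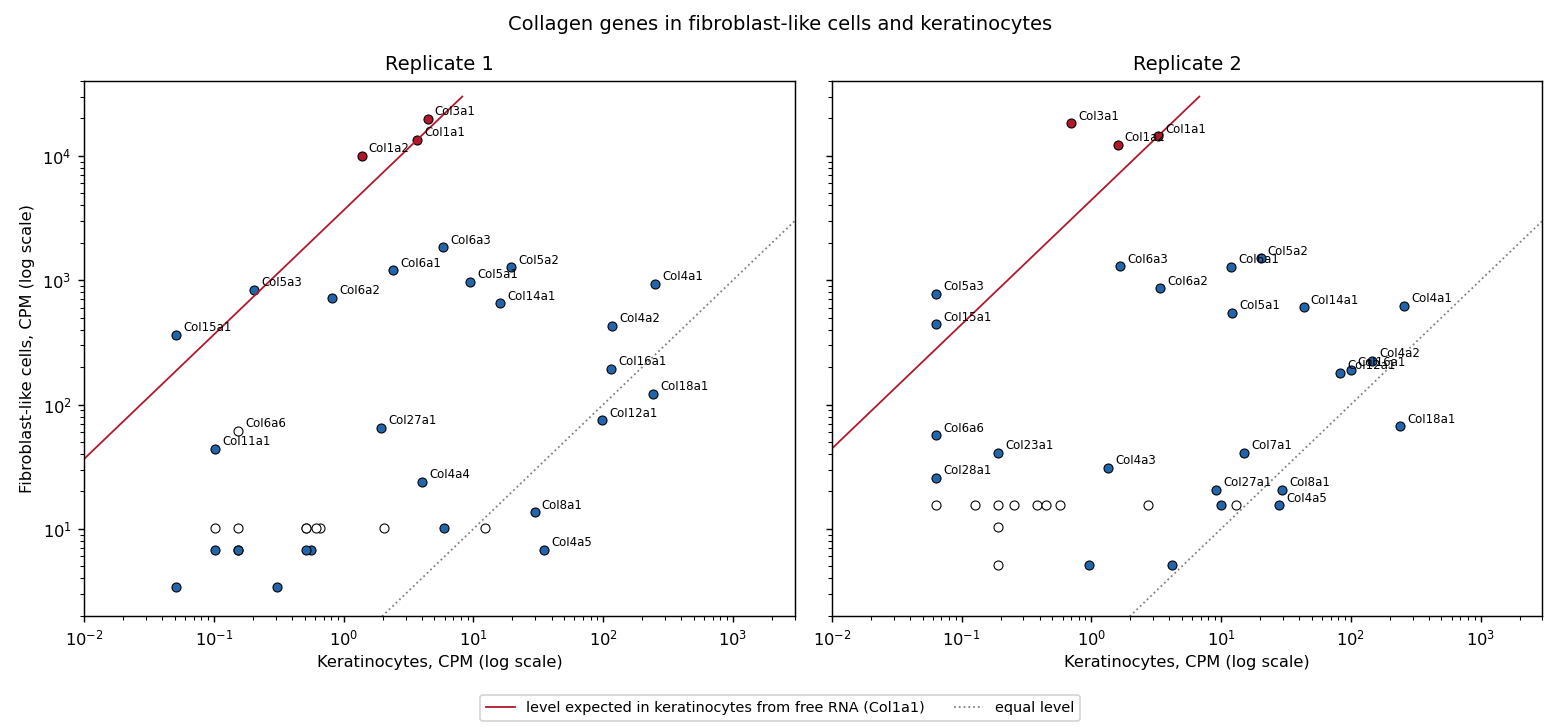
Level of each collagen gene in fibroblast-like cells (vertical) and in all keratinocytes (horizontal), in CPM on log axes, with 1 panel per library. The red line is the keratinocyte level that free RNA with the Col1a1 share would give, open circles stand at 3 UMIs in place of a 0, genes at 0 in both are left out, and gene names are given from 20 CPM in either. Col1a1, Col1a2 and Col3a1 (red) and Col5a3 and Col15a1 lie on or left of the line, and the basement membrane genes lie far to its right.

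The guide gives each gene a level to expect in keratinocytes if they held only free RNA of the composition of the fibroblast-like cells. Taking all Col1a1 as free RNA makes that share as large as it can be for a source of that composition. A gene was set apart from free RNA where its keratinocyte level was at least 3 times this, with a lower 95% bound over 1 and at least 20 UMIs, in both libraries. This held for 17 of the 43 genes: Col4a1, Col4a2, Col4a4, Col4a5, Col4a6, Col5a1, Col5a2, Col6a1, Col6a3, Col7a1, Col8a1, Col12a1, Col14a1, Col16a1, Col18a1, Col25a1 and Col27a1. With Col1a2 or Col3a1 as the guide, or with all cells of other types as the source, the count was again 17. As guides, Col1a2 and Col3a1 set lower expectations than Col1a1, since their gap between fibroblast-like cells and keratinocytes was wider. Every ratio then rises, so the counts with these guides are no separate check. Papilla-like cells alone were not used as the source. Over keratinocytes, Col1a1 was 115-fold and 1108-fold higher there, Col6a1 150-fold and 91.5-fold, and Col6a3 51.1-fold and 402-fold. By these folds Col6a1 in replicate 1 and Col6a3 in both libraries would not reach 3 times the expectation from such a source. Another 24 genes had under 20 UMIs in keratinocytes of a library, and Col1a2 fell at or under the line.

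**Figure D2:**
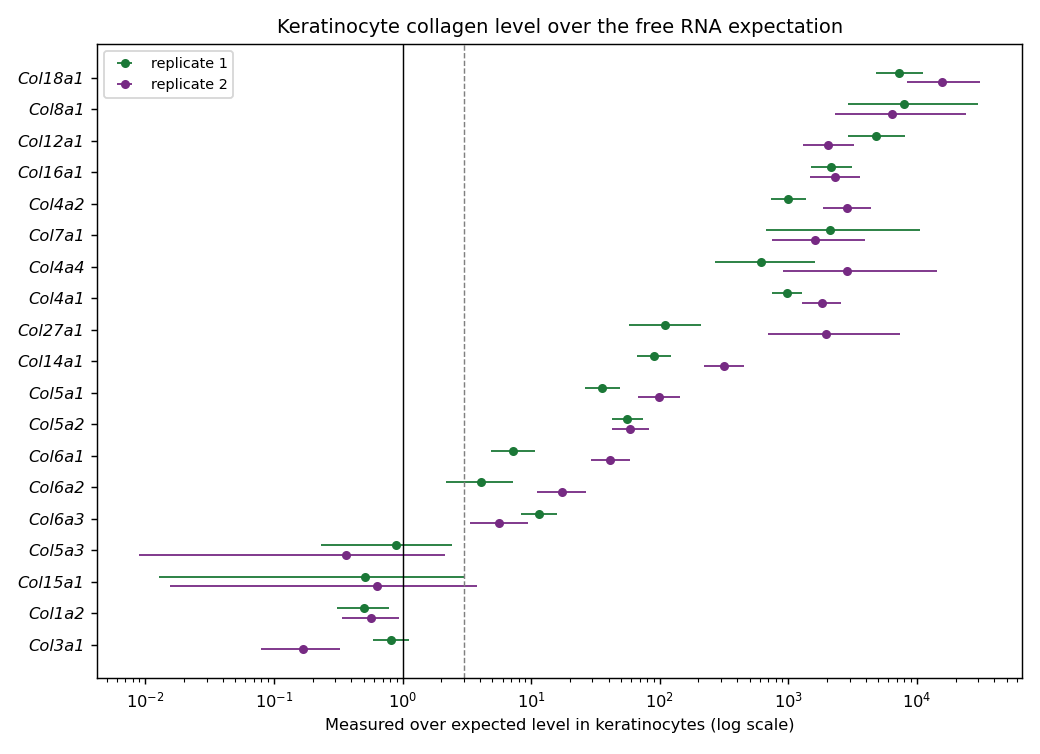
Measured over expected level in keratinocytes on a log axis, for the 19 genes drawn, with exact 95% intervals for each library; the solid line is at 1 and the dashed line at 3. Col18a1, Col8a1, Col12a1, Col16a1, Col7a1 and Col4a2 lie over 1000 in both libraries, and Col5a3, Col15a1, Col1a2 and Col3a1 have ratios under 1.

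The genes above the free RNA level differed widely in this ratio. Col18a1 stood at 7285 times the expectation in replicate 1 (4795 to 11157) and 15753 times in replicate 2 (8363 to 31211). Col5a2 stood at 56.2 (42.5 to 74.8) and 59.1 (42.6 to 82.9). Col6a3 was the lowest of the 17 in replicate 2, at 11.5 in replicate 1 (8.36 to 15.9) and 5.67 in replicate 2 (3.33 to 9.45). At the other end, Col1a2 stood at 0.50 (0.308 to 0.790) and 0.571 (0.338 to 0.942), Col5a3 at 0.89 (0.234 to 2.41) and 0.363 (0.00895 to 2.15), and Col15a1 at 0.511 and 0.637.

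Most collagen genes that could be tested were higher in fibroblast-like cells, and those called higher in keratinocytes were Col18a1, Col4a5 and Col4a6. A gene was tested where it passed edgeR's filter on low counts, which 27 of the 43 did. Of these 27, 23 were higher in fibroblast-like cells at an adjusted p under 0.05, as were 19% of all 10978 genes tested, and 3 were lower, as were 15.6%. The filter itself let 8 of the 27 through only by their level outside keratinocytes, so the count is no support for the direction.

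The main collagen IV chains were read in both and were higher in fibroblast-like cells. Col4a1, the main chain of collagen IV, had 935 and 621 CPM in fibroblast-like cells, against 250 and 255 in keratinocytes (log2 fold change 2.20, SE 0.20, adjusted p = 4.1e-10 by edgeR). Col4a2, its partner chain, had 429 and 226 in fibroblast-like cells, against 118 and 146 in keratinocytes (log2 fold change 1.99, SE 0.26, adjusted p = 5.5e-07). In both libraries fibroblast-like cells were the higher, and Col4a2 by 1.55-fold only in replicate 2 (1.12 to 2.08). Fold changes of the fit compare with the mean of the 10 clusters on the log scale, which gives a small cluster the weight of a large one. With keratinocytes pooled into 1 sum per library, a weighting chosen after the data were seen, Col4a1 stood at 1.58 and Col4a2 at 1.25 on the log2 scale, both still called.

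Col18a1 was higher in keratinocytes. It had 122 and 66.7 CPM in fibroblast-like cells, against 244 and 238 in keratinocytes (log2 fold change -1.03, SE 0.27, adjusted p = 0.0040 by edgeR). Both fibroblast-like values lay below both keratinocyte values. Keratinocyte RNA was present among the fibroblast-like cells: Krt14 had 170 and 1042 CPM there, against 4395 and 3750 in keratinocytes, which is 3.87% in replicate 1 and 27.8% in replicate 2. At that share the keratinocyte level of Col18a1 would give 9.44 and 66.2 CPM in the fibroblast-like cells, so the measured 66.7 in replicate 2 was 1.01 times this and the 122 in replicate 1 was 13 times. For Col4a1 the measured value was 96.8 and 8.75 times the value from Krt14. With Krt5 as the guide the shares were 7.16% and 18.4%, and the measured values were 7.01 and 1.52 times the value from Krt5 for Col18a1 and 52.3 and 13.2 times for Col4a1.

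Col4a5 and Col4a6, the chains of collagen IV encoded on the X chromosome, were few in fibroblast-like cells. Col4a5 had 6.8 and 15.4 CPM there from 2 and 3 UMIs, against 35 and 27.9 in keratinocytes (log2 fold change -1.43, SE 0.54, adjusted p = 0.039 by edgeR). It was not called with 5 of the other settings tried, among them DESeq2 (adjusted p = 0.11) and edgeR's RLE scaling (adjusted p = 0.056). Col4a6 had 0 UMIs in the fibroblast-like cells of both libraries, against 12.3 and 13 CPM in keratinocytes. A count of 0 allows up to 10.2 CPM in the fibroblast-like cells of replicate 1 and 15.4 in replicate 2. That is at most 0.829-fold of the keratinocyte level in replicate 1 and at most 1.18-fold in replicate 2, so a lower level was not detectable at the depth of replicate 2 alone. The fit over both libraries called the gene lower (adjusted p = 0.015 by edgeR).

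Col12a1 and Col16a1, which coat fibrils, depended on how keratinocytes were summed. Col12a1 had 74.8 and 180 CPM in fibroblast-like cells, against 97.9 and 83.2 in keratinocytes. The library values therefore pointed in opposite directions, while the fit on cluster means gave a log2 fold change of 1.05 (SE 0.32, adjusted p = 0.011 by edgeR). Col16a1 had 194 and 190 in fibroblast-like cells, against 115 and 99.5 in keratinocytes (log2 fold change 1.54, SE 0.30, adjusted p = 0.00014). With keratinocytes pooled, neither was called (log2 fold change 0.42 with adjusted p = 0.46 for Col12a1, and 0.85 with adjusted p = 0.082 for Col16a1). That fit tested 19 of the collagen genes and called 16 higher and 1, Col18a1, lower. Col8a1, a short-chain collagen, had 13.6 and 20.5 CPM in fibroblast-like cells, against 29.6 and 29.6 in keratinocytes, and was not called in any setting (adjusted p = 0.70 in the first fit).

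Col5a1, Col5a2, Col14a1, Col6a1 and Col6a3 were read in keratinocytes above the free RNA level set from fibroblast-like cells. All were far higher in fibroblast-like cells. Col5a2 had 1272 and 1504 CPM in fibroblast-like cells, against 19.5 and 20.1 in keratinocytes. Col5a1 had 969 and 544 in fibroblast-like cells, against 9.46 and 12.2 in keratinocytes. Col14a1 had 653 and 606 in fibroblast-like cells, against 16.1 and 43.3 in keratinocytes. Fibroblast-like cells exceeded keratinocytes by 65.1-fold and 74.7-fold for Col5a2, by 102-fold and 44.7-fold for Col5a1 and by 40.6-fold and 14-fold for Col14a1. Col6a3, the long chain of collagen VI, had 1843 and 1289 in fibroblast-like cells, against 5.8 and 1.66 in keratinocytes. Col6a1 had 1204 and 1284 in fibroblast-like cells, against 2.39 and 11.9 in keratinocytes, and Col6a2, with 16 UMIs in keratinocytes of replicate 1 and so not set apart from free RNA, had 724 and 863, against 0.814 and 3.38. The library difference of Col6a1 and Col6a2 in keratinocytes moved with the shares of clusters 7 and 6. Cluster 7 held 2.94% of the cells of replicate 1 and 10.9% of those of replicate 2, and cluster 6 held 0.864% and 18.9%. In replicate 2 cluster 7 gave 84 and cluster 6 gave 81 of the 187 Col6a1 UMIs of keratinocytes, and for Col6a2 they gave 23 and 20 of 53. Their part in the library difference was not tested.

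Col27a1, a minor fibril collagen, had 64.6 and 20.5 CPM in fibroblast-like cells, against 1.93 and 9.11 in keratinocytes. Col6a6 had 61.2 and 56.5 in fibroblast-like cells and 1 UMI in all keratinocytes. Col4a4 had 23.8 and 15.4 in fibroblast-like cells, against 4.02 and 10.1 in keratinocytes, and Col4a3 6.8 and 30.8, against 0.56 and 1.34. These rest on 2 to 19 UMIs of each library in the fibroblast-like cells. Col7a1 had 10.2 and 41.1 CPM in fibroblast-like cells from 3 and 8 UMIs, against 5.9 and 15 in keratinocytes (log2 fold change 2.98, SE 0.83, adjusted p = 0.0057 by edgeR). The interval of its fold change in replicate 1 ran from 0.351 to 5.18, and Col7a1 was not called with called doublets kept (adjusted p = 0.27) or with another random split of the UMIs (adjusted p = 0.38). Col8a2 had 6.8 and 5.13 in fibroblast-like cells from 2 and 1 UMIs, against 0.509 and 4.21. Other calls of this contrast also depended on the setting. By edgeR, Col4a4 was not called with doublets kept (adjusted p = 0.22) or with the other split (adjusted p = 0.060). Nor was Col8a2 called with the other split (adjusted p = 0.059 by edgeR). DESeq2 did not call Col6a6 (adjusted p = 0.11) or Col11a1 (adjusted p = 0.31).

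Papilla-like cells, named for markers of the dermal papilla, the mesenchyme that sits in the hair bulb, were compared after they had been seen as a sub-cluster. Col1a1 had 423 and 3603 CPM in papilla-like cells, against 13397 and 14346 in fibroblast-like cells. Col3a1 had 2073 and 2089 in papilla-like cells, against 19917 and 18346. Col5a3 had 127 and 30.3 in papilla-like cells, against 837 and 775. Of the 27 genes tested, 14 were lower in papilla-like than in fibroblast-like cells, as were 3.89% of all genes. Col6a1, with 360 and 1090, and Col6a2, with 127 and 686, differed the least of the 14 (log2 fold change -1.18 and -1.32). Against keratinocytes 15 were higher in papilla-like cells, as were 6.29% of all genes. Since 8 of the 27 passed the filter only by their level outside keratinocytes, the counts of 14 and 15 are no support for their directions. Col18a1 was lower there than in keratinocytes, at 21.2 and 20.2 CPM, against 244 and 238 (log2 fold change -3.78, SE 0.63, adjusted p = 7.3e-05 by edgeR), as were 6.86% of all genes.

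Some rare chains were read in papilla-like cells. Col23a1, a transmembrane collagen, had 148 and 111 CPM in papilla-like cells, against 6.8 and 41.1 in fibroblast-like cells. Col11a1, a minor fibril chain, had 42.3 and 151 in papilla-like cells, from 2 and 15 UMIs, against 44.2 and 5.13 in fibroblast-like cells, from 13 and 1, so the libraries differed in direction. Col26a1 had 63.5 and 30.3 in papilla-like cells, against 0 and 0. The differences of Col23a1 and Col11a1 from fibroblast-like cells were not called, Col26a1 did not pass the filter, and these sums hold few cells. In the 6 and 5 vascular cells, too few for the fit, Col4a1 had 2587 and 441 CPM and Col4a2 1250 and 294, while in immune cells both had 0.

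The 10 keratinocyte clusters fell into groups with different collagens, and each is called by its number and leading genes. Clusters 2 (led by Gm20186 and Rgs2), 3 (Nppc, Gnmt), 4 (Rasl11a, Fhl1, Tagln), 5 (Edn2, Mat2a) and 9 (Cenpf, Cdc20, cycling) had high Col4a1, Col4a2, Col16a1, Col18a1 and Col12a1. Clusters 1 (Pthlh, Wfdc18) and 8 (Wfdc18, Hist1h1b) had little of Col4a1, Col4a2, Col12a1 and Col5a2 and were the clusters with Col6a3. Cluster 7 (Defb6, Cst6, Calml3, Krt24) had little Col4a1 and had Col7a1, Col6a1, Col6a2 and Col8a2. Cluster 6 (Sms, Gm973) had 94.5% of its cells in replicate 2, and cluster 11 (Krt25, Krt71) carried markers of the inner root sheath, the layer around the growing hair.

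The joint test over the 10 clusters called 18 of the 27 genes at an adjusted p under 0.05, as it did 57.6% of all genes, and nothing particular to collagens is read from the count. Among the 27, 19 also pass the filter on keratinocyte sums alone, and 17 of these were called, against 60.4% of such genes. The tested genes of these 19 that were not called were Col1a1 and Col4a6 (adjusted p = 0.063), and Col25a1, which passes on keratinocyte sums alone but not in the full fit, was not tested. What follows are therefore the levels and directions of single genes.

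**Figure D3:**
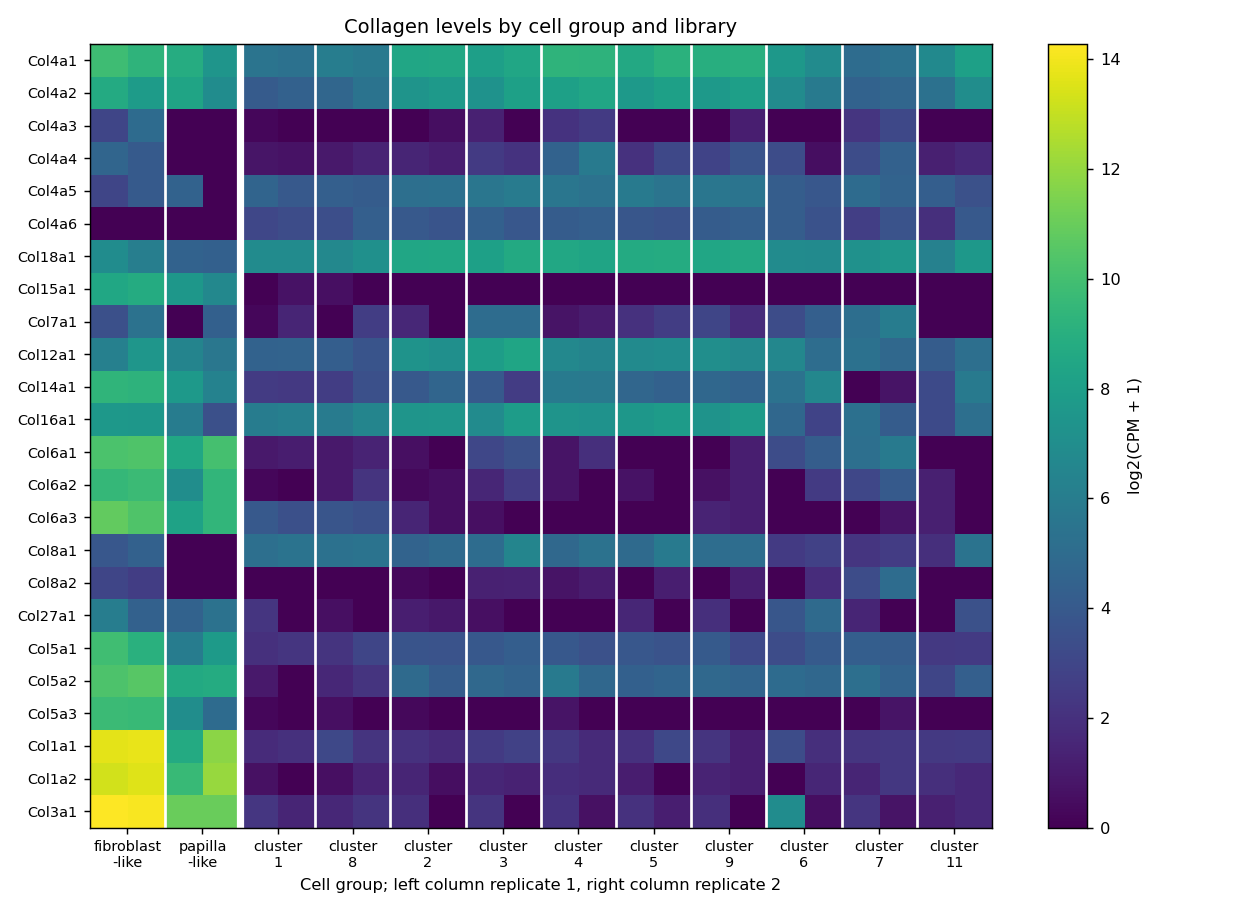
Heat map of log2(CPM + 1) for 24 collagen genes in fibroblast-like and papilla-like cells and in the 10 keratinocyte clusters, with replicate 1 on the left and replicate 2 on the right of each pair of columns. The fibril genes at the bottom are bright in the mesenchymal columns, and Col4a1, Col4a2 and Col18a1 are bright in clusters 2, 3, 4, 5 and 9 of the keratinocytes.

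Col4a1 was highest in cluster 4, with 629 and 597 CPM. It had 496 and 508 in cluster 9, 392 and 547 in cluster 5, 350 and 375 in cluster 2 and 265 and 354 in cluster 3, against 44 and 39.4 in cluster 1, 65.2 and 52.8 in cluster 8 and 32.3 and 39.3 in cluster 7. Values of clusters 9 and 5 overlapped, as did those of clusters 2 and 3, while every value of clusters 2, 3, 4, 5 and 9 lay above every value of clusters 1, 7 and 8. Clusters 6, with 192 and 120, and 11, with 107 and 278, lay between. Against the mean of the other keratinocyte clusters Col4a1 was higher in cluster 4 (log2 fold change 1.91, SE 0.17, adjusted p = 8.9e-10 by edgeR) and lower in cluster 7 (-2.46, SE 0.30, adjusted p = 2.4e-07) and in cluster 1 (-2.28, SE 0.25, adjusted p = 4.5e-08).

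Col4a2, across the shared promoter from Col4a1, was also high in cluster 4 and low in clusters 1 and 7. Cluster 1 had the lower values for Col4a2, whereas cluster 7 had them for Col4a1, with near-equal values in replicate 2. It had 272 and 348 CPM in cluster 4, against 16.2 and 20.9 in cluster 1 and 21.5 and 25.7 in cluster 7. Over the 20 sums of 10 clusters and 2 libraries, which share cells and depth between the genes, Pearson's r of log2(level + 1) was 0.98 and Spearman's rho 0.93. For the X-linked pair Col4a5 and Col4a6, r was 0.33 and rho 0.36, and for Col4a4 and Col4a3, neighbours on chromosome 1, r was 0.78 and rho 0.60. Col4a6 ranged only from 2.75 to 19.6 CPM over these sums. Col4a5, which also joins collagen IV trimers with Col4a3 and Col4a4, had 48.3 and 61.1 in cluster 3, against 23.8 and 14.9 in cluster 1 and 17.8 and 13.9 in cluster 6.

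Col4a3 and Col4a4, the chains that complete the trimer with Col4a5 in membranes of kidney and other organs, were read mainly in clusters 4 and 7. Col4a4 had 21.7 and 55.8 CPM in cluster 4 (log2 fold change 3.72, SE 0.30, adjusted p = 2.4e-10 by edgeR) and 8.97 and 21 in cluster 7 (2.46, SE 0.43, adjusted p = 7.7e-05). It had from 0.428 to 11.6 elsewhere, and the value of cluster 7 in replicate 1 lay within that range. Col4a3 had 3.28 and 4.46 in cluster 4 and 3.59 and 7.45 in cluster 7, with at most 1.43 elsewhere. These rest on 5 and 8 UMIs in cluster 4 and 2 and 11 in cluster 7, Col4a3 passed the filter only by its level in other cells, and it was not set apart from free RNA. It was called in both clusters (3.74, SE 0.84, adjusted p = 0.0019, and 4.47, SE 0.88, adjusted p = 0.00047).

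Col18a1 was read in all keratinocyte clusters. It had 416 and 442 CPM in cluster 5, 374 and 324 in cluster 4, 348 and 369 in cluster 2, 347 and 393 in cluster 9 and 277 and 413 in cluster 3. These values overlapped one another. It had 118 and 118 in cluster 1, 103 and 145 in cluster 8, 116 and 113 in cluster 6, 147 and 183 in cluster 7 and 75.8 and 196 in cluster 11, all lower than any of the first 5. At least 1 Col18a1 UMI was found in 78.1% of keratinocytes of replicate 1 and 81.8% of replicate 2, against 2 of 9 and 0 of 15 immune cells. For Col4a1 it was 60.5% and 66.7%, against 0 of 9 and 0 of 15 immune cells, where 0 of 9 allows a share of up to 33.3% by the same limit of 3 cells.

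Col16a1 followed the same clusters at the upper end and parted from Col18a1 at the lower end. It had 189 and 231 CPM in cluster 5 and 173 and 179 in cluster 2, against 62 and 71.7 in cluster 1. It was lower still in cluster 6, with 26.7 and 6.2 (log2 fold change -3.70, SE 0.39, adjusted p = 5.7e-08 by edgeR), and in cluster 11, with 8.26 and 36.7. Col12a1 was highest in cluster 3, with 242 and 332 CPM, above every other cluster of both libraries (log2 fold change 2.58, SE 0.16, adjusted p = 2.3e-12). It had 163 and 138 in cluster 2, and 21.3 and 22.1 in cluster 1 and 18.4 and 11.9 in cluster 8.

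**Figure D4:**
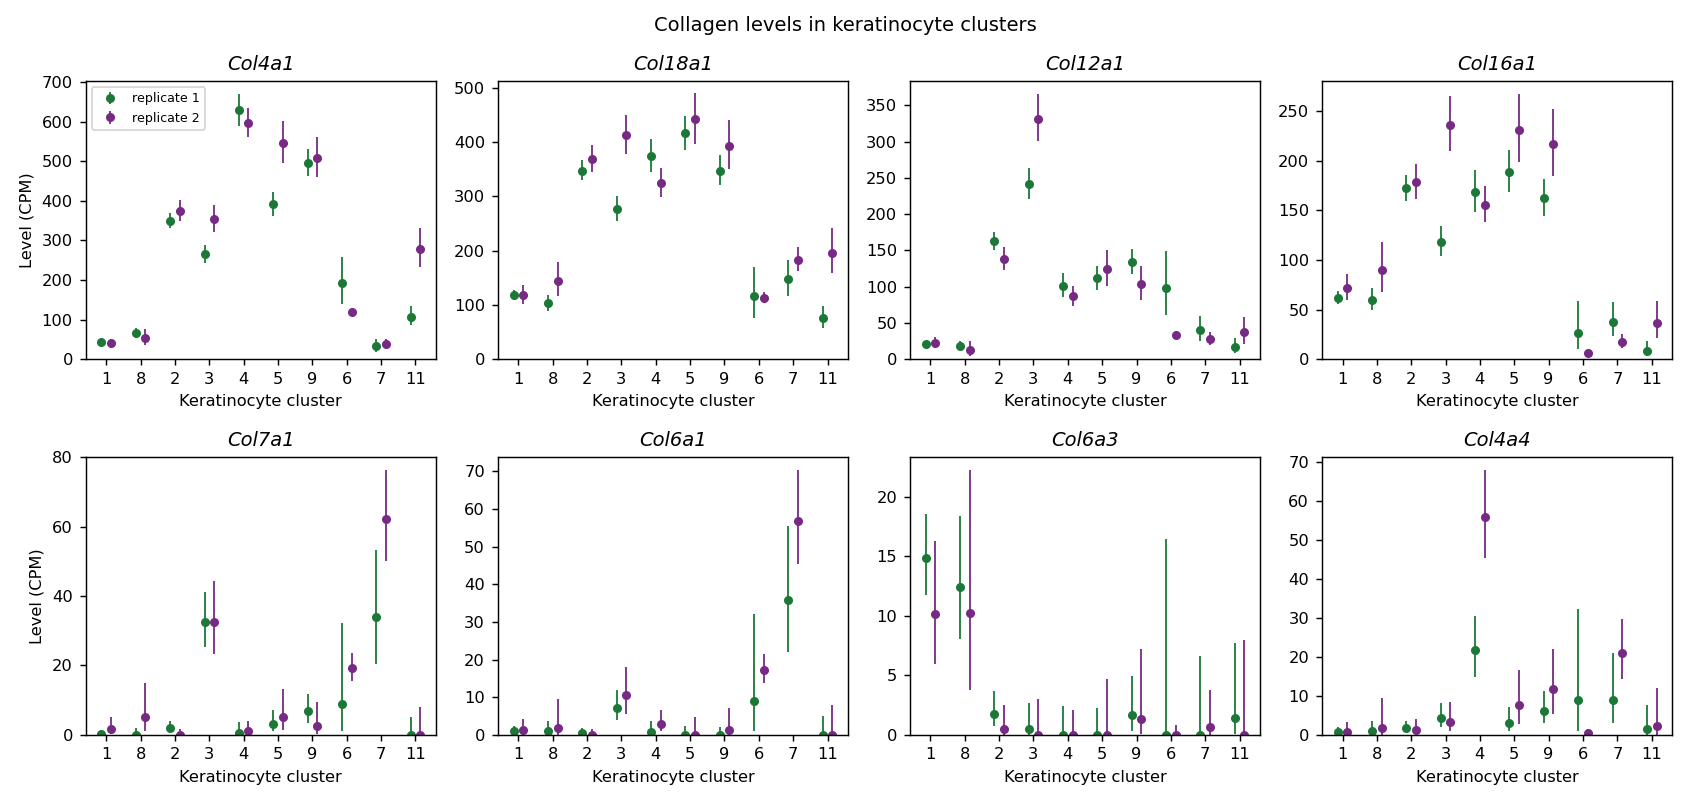
Level in CPM (vertical, from 0) of 8 collagen genes in the 10 keratinocyte clusters (horizontal, grouped by pattern), with a point for each library and exact 95% counting intervals. Col4a1, Col18a1, Col12a1 and Col16a1 are high in clusters 2, 3, 4, 5 and 9, Col7a1 is high in clusters 3 and 7, Col6a1 in cluster 7, Col6a3 in clusters 1 and 8 and Col4a4 in cluster 4.

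Col7a1, the anchoring fibril gene, was high in clusters 7 and 3 and nearly absent from most others. It had 34.1 and 62.3 CPM in cluster 7 (log2 fold change 4.54, SE 0.40, adjusted p = 1.0e-09 by edgeR) and 32.5 and 32.6 in cluster 3 (3.93, SE 0.39, adjusted p = 1.8e-08). Cluster 6 had 8.91 and 19.3, and clusters 1, 2, 4, 5, 8, 9 and 11 had from 0 to 6.78. In all keratinocytes at least 1 UMI of Col7a1 was found in 4.47% of cells of replicate 1 and 12.5% of cells of replicate 2.

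Cluster 7 held the largest set of differences, with 8 genes higher, as were 15.1% of all genes, and 6 lower, as were 10.9%. Col6a1 had 35.9 and 56.9 CPM there (log2 fold change 5.69, SE 0.39, adjusted p = 1.7e-11 by edgeR), against 7.17 and 10.6 in cluster 3, 8.91 and 17.3 in cluster 6 and at most 2.79 in the others. Col6a2 had 7.18 and 15.6 there (3.79, SE 0.56, adjusted p = 5.8e-06). Col8a2, a chain of the short-chain collagen VIII, had 8.97 and 32.5 (5.79, SE 0.54, adjusted p = 1.3e-08), with at most 2.57 elsewhere. The other chain, Col8a1, went the opposite way, with 3.59 and 4.74 in cluster 7 (-2.70, SE 0.52, adjusted p = 0.00024), against 36.7 and 43 in cluster 1. Col14a1 had 0 and 0.677 CPM in cluster 7 (adjusted p = 0.00034), against 40.1 and 96.3 in cluster 6 and 59.1 and 53 in cluster 4. The guide Col1a1 had 3.59 and 4.06 in cluster 7 and 3.66 and 3.25 in all keratinocytes, and Col6a3 had 0 and 0.677 in cluster 7.

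Cluster 7 carried 8 of 12 bulge markers and 5 of 6 upper follicle markers at 100 CPM or more. With a finer division, 85.5% of its cells went to a cluster led by Krt24, Calml3 and Grem1, with 85 and 280 cells, and the others to a cluster led by Defb6 and Krt79, with 24 and 38. Col6a1 had 45.2 and 72.8 CPM in the Krt24 cluster, against 12.6 and 0 in the Defb6 cluster. Col5a2 had 50.2 and 27.7 in the Krt24 cluster, against 0 and 3.09. Col7a1 had 37.7 and 72.8 in the Krt24 cluster, against 25.2 and 24.7, so it was present in both. These values were not tested, and the Defb6 cluster holds few cells.

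Clusters 1 and 8 were the keratinocytes with Col6a3. It had 14.9 and 10.2 CPM in cluster 1 (log2 fold change 4.66, SE 0.45, adjusted p = 1.7e-08 by edgeR) and 12.4 and 10.2 in cluster 8 (4.33, SE 0.60, adjusted p = 5.5e-06), with at most 1.77 in every other cluster. Col6a1 had 0.966 and 1.19 in cluster 1 and 0.995 and 1.7 in cluster 8. Col6a3 and Col6a1 were thus highest in different keratinocyte clusters. Col1a1 had 2.32 and 2.99 CPM in cluster 1 and 7.46 and 3.41 in cluster 8. Col5a2 was all but lost from cluster 1, with 0.966 and 0 CPM (-4.55, SE 0.49, adjusted p = 3.6e-08), and from cluster 8, with 1.99 and 3.41 (-2.92, SE 0.54, adjusted p = 0.00020), against 57.8 and 26.8 in cluster 4. Of the 27 genes, 8 were lower in cluster 1, as were 8.23% of all genes, and 2 higher, Col6a3 and Col8a1, as were 12.5%. In cluster 8, 6 were lower, as were 6.09%, and the same 2 were higher, as were 10.9%. Col8a1 was not called in either with DESeq2 or without the library term.

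In clusters 2, 3, 4, 5 and 9 the calls were all of higher levels. In cluster 3 there were 11 of them, as in 16% of all genes, and in cluster 4 there were 10, as in 12.1%. Clusters 2 and 5 had 7 each, as had 10.9% and 8.83% of all genes, and cluster 9 had 7, as had 11.4%. Col4a1, Col4a2, Col4a5, Col12a1, Col16a1 and Col18a1 were among the calls in all 5. Col5a2 was higher in clusters 2, 3, 4 and 9, with 57.8 and 26.8 CPM at the most, in cluster 4. Krt14, for comparison, had 9136 and 8401 CPM in cluster 3 and 7285 and 6851 in cluster 1, against 1064 and 976 in cluster 4, so the order of the collagens was not that of this keratin.

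Cluster 6 had Col14a1 and Col27a1. Col27a1 had 13.4 and 29.1 CPM there, against 3.67 and 0 in cluster 1 and at most 10.8 in any other. Of the 27 genes, 6 were higher in cluster 6, as were 13.7% of all, and 5 lower, as were 9.52%. Replicate 1 gave only 32 cells and 3 UMIs of Col27a1 to it, and the joint test no longer called Col27a1 without this cluster (adjusted p = 0.25). In cluster 11, of inner root sheath cells, 4 genes were lower, as were 9.91% of all: Col16a1, Col12a1, Col4a5 and Col18a1. Its depth was the highest of the keratinocyte clusters, with a median of 19052 UMIs per cell, against 7720 to 15519 in the others.

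Col25a1, a transmembrane collagen, did not pass the filter of the fit. It had 40 and 43 UMIs in keratinocytes and 0 in fibroblast-like cells, with 4.59 and 7.81 CPM in cluster 4, 4.93 and 5.11 in cluster 5 and 4.52 and 6.45 in cluster 9, against 0 in cluster 7. The other 15 genes that did not pass had from 0 to 26 UMIs in all sums. Col9a1, Col9a2, Col10a1 and Col19a1 had none, and collagens II, IX and X are known mainly from cartilage.

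Cluster 9, the only cluster that counted as cycling, was compared with the 6 that did not cycle. Col4a1 was higher (log2 fold change 1.28, SE 0.19, adjusted p = 7.9e-06 by edgeR), and so were Col4a2 (1.04), Col14a1 (1.30) and Col16a1 (0.68). These were 4 of the 27 genes, as were 11.6% of all genes. The result depended on which cells were counted. Clusters 6, 8 and 11 were classed as mixed and left out, though most of their cells held at least 3 cycling markers. The shares were 84.4% and 66.6% in cluster 6 and 74.3% and 85.4% in cluster 11. Cluster 8 also cycles, with 100% and 99% of its cells holding at least 3 cycling markers, and had 65.2 and 52.8 CPM of Col4a1, against 496 and 508 in cluster 9. The non-cycling clusters that share leading genes with them spread as far, with 44 and 39.4 in cluster 1 and 350 and 375 in cluster 2. With another random split of the UMIs, which formed other clusters, 1 gene was higher and 7 were lower in cycling cells.

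Of a list of 43 genes that hydroxylate, fold, cut, cross-link or bind collagen, 33 were tested. In fibroblast-like cells 27 of them were higher than in keratinocytes, as were 19% of all genes, and 1 was lower, as were 15.6%, and the median log2 fold change of the 33 was 3.0, against -0.19 for all genes. The filter also used the fibroblast-like and papilla-like sums, so a gene near 0 in keratinocytes could pass by its level there. How many did so was not counted, and these counts are no support for the direction. The greatest fitted log2 fold changes were those of Pcolce (10.86), Pcolce2 (10.44) and Mmp2 (9.67). Pcolce, which speeds the trimming of fibril collagens, had 843 and 621 CPM in fibroblast-like cells, against 0.61 and 0.382 in keratinocytes. Pcolce2 had 235 and 288, against 0 and 1.15. Mmp2, a protease of basement membranes, had 786 and 714, against 2.09 and 1.66. The gene that was lower was Ddr1, a collagen receptor of epithelia, with 23.8 and 0 CPM, against 85.9 and 79.9 (log2 fold change -2.32, SE 0.47, adjusted p = 0.00025 by edgeR).

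Among keratinocyte clusters 25 of the 33 differed, as did 57.6% of all genes. Cluster 4 had 14 higher, as were 12.1% of all genes, with the greatest fitted changes in Loxl1, Loxl2 and Pcolce. Pcolce had only 2.63 and 1.12 CPM there, against 1.23 and 2.55 in cluster 5 and 4.46 and 0 in cluster 6. It was not set against a free RNA expectation. Loxl2 had 19 and 20.1 CPM in cluster 4, against 13.4 and 42.4 in cluster 3. Loxl1, a lysyl oxidase that cross-links collagen and elastin, had 13.8 and 12.8 CPM in cluster 4, with at most 4.31 in other clusters (log2 fold change 4.86, SE 0.47, adjusted p = 1.4e-08 by edgeR). Cluster 1 had 2 higher and 8 lower, as were 12.5% and 8.23% of all genes. Plod2, a lysyl hydroxylase, had 52.9 and 44.2 CPM in cluster 1 and 56.2 and 30.7 in cluster 8, against 1.79 and 0.677 in cluster 7 (adjusted p = 3.0e-08 for cluster 1 by edgeR). In cluster 7, 8 were higher and 7 lower, as were 15.1% and 10.9% of all genes, and P3h2, a prolyl hydroxylase that acts on collagen IV, had 19.7 and 27.7 CPM there and 36.3 and 44 in cluster 3, against 0.58 and 0 in cluster 1. In cycling cells P4hb and Itga1 were higher and P3h4 lower.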

How the data were processed

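Single cells were profiled with 10x 3′ chemistry in 2 libraries of 1 group. The deposited values are UMI counts per gene and barcode, made by the authors with Cell Ranger 3.1.0 on build mm10, per the submitters' processing notes, and were not normalized. Whether counting used strand is not given in the sources used here, so reads of Col4a1 and Col4a2, which overlap on opposite strands near their starts, may be shared.

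Barcodes below 1000 genes or above 10% mitochondrial UMIs were dropped, as were called doublets. Scrublet (in scanpy 1.11.5) called 0 doublets in each library at its automatic threshold, so the 255 and 139 barcodes with the highest scores were called instead, at an assumed rate of 0.8% per 1000 barcodes; of these 214 and 131 had passed the other filters. The calls also removed Col1a1-rich barcodes, and results with doublets kept were an alternative. The UMIs of each cell were split at random, clusters were formed from one part without collagen genes, and levels and tests used the other; the same cells thus formed the groups. Counts were summed per library and cluster, giving 24 sums of 12 groups, and tested with edgeR 4.0.16 (quasi-likelihood test, Benjamini-Hochberg adjustment over 10978 genes, library as a block, 11 residual degrees of freedom) in R 4.3.3. The block is the library itself, since each library gave 1 sum of every group. The 11 degrees of freedom thus come from 12 groups in only 2 libraries. On simulated data, 4-fold changes were recovered for 81% of changed genes in the fibroblast-like contrast, 95% among clusters and 98% in the cycling contrast. Those data had the same spread for every gene and no library difference. Among clusters, only the largest, cluster 1, was changed. The shares may not hold for smaller clusters or for the spread of the real data. For 2-fold changes the shares were 24%, 17% and 38%, so a gene not called may still differ by that much. DESeq2 1.42.0 was an alternative. Values are given for genes with at least 20 CPM in fibroblast-like cells or a keratinocyte cluster, or called, with a few rarer ones chosen after their values were seen. The members and lists were chosen with earlier results of these data known, and sub-cluster names and papilla contrasts after the sub-clusters were seen.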

Additional observations from a re-analysis of the deposited data

Results flagged for a closer look

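Barcodes left out of the comparisons held Col1a1 above its level in keratinocytes, which was 3.66 CPM in replicate 1 and 3.25 in replicate 2. In barcodes under 1000 genes it had 82.7 and 152 CPM, from 1587 and 1543 barcodes. In barcodes with over 10% mitochondrial UMIs it had 77.8 and 123 CPM, from 1087 and 496 barcodes. In called doublets it had 603 and 208 CPM, from 214 and 131 barcodes. What these barcodes hold was not tested.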

How the results depend on the processing

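The number of collagen genes higher in fibroblast-like cells ran from 16 to 26 over the alternatives and the joint count among clusters from 16 to 21. With keratinocytes pooled, 1 gene was lower in fibroblast-like cells instead of 3. The cycling comparison was the least stable. Without the replicate block it gave 2 higher genes instead of 4, as did DESeq2, a finer division into clusters and keeping doublets, while a coarser division and another split of the UMIs gave 1. In it 1 gene was lower with the finer division, 7 with the other split and 1 where collagen genes could form clusters. Directions reversed there for Col4a1 (-0.14 with the other split, -0.13 with doublets kept), Col4a2 (-0.30 and -0.047) and Col14a1 (-0.018 with the other split); the cause was not tested. Without the replicate block the fibroblast-like comparison again called 23 genes higher and 3 lower, and the joint test 18. Leaving out a library leaves no test; the genes set apart from free RNA then numbered 17 to 20, against 17 with both, 21 with all UMIs and 18 with doublets kept. Thinned to 1 depth, shares of keratinocytes with a UMI were 1.69% and 1.80% for Col1a1, 49.3% and 53.1% for Col4a1, 2.42% and 6.44% for Col7a1 and 61.2% and 64% for Col18a1, which limits what single cells show of rarer chains.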
